A study of Mus musculus with 2 samples.

Results

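The interferon receptors and interferon-stimulated genes described here are 40 of the 43346 Ensembl genes listed for each library. They were chosen by symbol, as 5 receptor chains, 5 STAT and IRF transcription factors, 3 IFIT genes, 5 OAS genes, 4 nucleic acid sensors, 7 GTPases, 3 genes of the ISG15 system and 8 further targets of interferon. All 40 were found and all had counts in both libraries. Polyadenylated RNA came from the sigmoid colon, which leads into the rectum, of 1 adult female C57BL/6J mouse aged 10 weeks, and was extracted with the RNeasy Lipid Tissue Mini Kit. It was sequenced in 2 technical libraries, numbered as in the labels, of which library 2 was made in 2015. Both form 1 group, and the labels give no treatment and no altered allele.

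Interferons are secreted proteins that put cells into an antiviral state. Type I interferons bind IFNAR1 with IFNAR2, interferon gamma binds IFNGR1 with IFNGR2, and type III interferons bind IFNLR1 with the shared chain IL10RB. The receptors act through JAK kinases on STAT proteins. STAT2 and IRF9 belong to the ISGF3 complex, which binds the interferon-stimulated response element (ISRE), whereas the response to interferon gamma uses the gamma-activated sequence (GAS). In the gut, type III interferon is known to act mainly on the epithelium, and a low level of interferon-stimulated transcripts is present without infection.

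The libraries held 25843064 and 20681574 expected counts, estimated read counts in which ambiguous reads are divided among transcripts. Genes of mitochondrial DNA, together with 7 nuclear copies, made up 67.3% of the TPM (a level corrected for transcript length and library size) in library 1 and 21.8% in library 2, which lowers every nuclear TPM of library 1. Most sums and some gene levels are therefore also given as nuclear TPM, rescaled over nuclear protein-coding genes. The other gene levels are deposited TPM, in which close values and a small SD can hide a difference on the nuclear scale. Each ± is an SD over n = 2 technical libraries and each p-value covers counting error between these libraries, so neither covers differences between mice. The tissue was bulk, in which fewer cells of a type and less RNA per cell cannot be told apart. The distal colon genes Hoxa13 (52.5 and 33.9 TPM), Hoxb13 (12.8 and 172 TPM) and Hoxd13 (40.8 and 25.8 TPM) were detected in both libraries, and the epithelial and smooth muscle lists were detected in full.

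The sequences before the start sites of 8 of the genes are shown first, because the ISRE is the feature by which ISGF3 recognises such genes, and the 8 include genes that were higher, lower and not called in the comparison of the libraries. They come from RefSeq on GRCm38.p6, the assembly also called mm10, and read 5′ to 3′ on the strand of the gene. Capitals mark matches to the ISRE core, which is GAAA, any 2 bases and GAAA again, and reads TTTC, any 2 bases and TTTC where the match lies on the other strand. Isg15 (chr4:156200819-156201018, minus strand) and Ifit1 (chr19:34640689-34640888, plus strand) are shown for the 200 bases before the start. The others are shorter stretches around the matches of Ifit3 (chr19:34583363-34583426, plus strand), Bst2 (chr8:71537577-71537612, minus strand), Oas1a (chr5:120907526-120907555, minus strand), Irgm1 (chr11:48871425-48871460, minus strand), Gbp7 (chr3:142530273-142530302, plus strand) and Rsad2 (chr12:26456553-26456582, minus strand).
Isg15: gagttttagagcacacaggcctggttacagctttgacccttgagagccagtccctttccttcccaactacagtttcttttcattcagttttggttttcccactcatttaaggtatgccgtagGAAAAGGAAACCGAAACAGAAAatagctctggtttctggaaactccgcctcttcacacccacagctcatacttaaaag
Ifit1: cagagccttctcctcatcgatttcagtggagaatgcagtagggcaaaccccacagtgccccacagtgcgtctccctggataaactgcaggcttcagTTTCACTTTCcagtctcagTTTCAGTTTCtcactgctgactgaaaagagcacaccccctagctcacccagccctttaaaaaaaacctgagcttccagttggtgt
Ifit3: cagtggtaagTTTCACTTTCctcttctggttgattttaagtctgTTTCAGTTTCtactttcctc
Bst2: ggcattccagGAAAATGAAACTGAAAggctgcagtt
Oas1a: cccttctcggGAAATGGAAACTGAAAatct
Irgm1: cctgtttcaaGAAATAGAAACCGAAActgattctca
Gbp7: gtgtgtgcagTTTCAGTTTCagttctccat
Rsad2: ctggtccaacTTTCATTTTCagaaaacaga

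In Isg15, 3 overlapping matches ran from position -78 to -57, counted from the start at 0. Ifit1 and Ifit3 each held 2 separate matches, whereas the 2 matches of Oas1a, of Irgm1 and of Bst2 overlapped. Gbp7 and Rsad2 held 1 match each.

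RefSeq promoter windows of 300 bases, from 250 before to 50 after the start, were given for 33 of the 40 genes and for 27025 genes in all. The ISRE core, searched on both strands, lay in a window of 15 of the 33 genes (45.5%, exact 95% interval 28.1 to 63.6%), against 3.99% of all genes. A gene with several start sites was counted once. With the bases before the start alone the shares were 39.4% and 3.46%, and with a C required after the core, on both strands in the whole window, they were 36.4% and 0.944%. The GAS core TTCNNNGAA, which reads the same on both strands, lay in a window of 9 of the 33 genes (27.3%) against 9.55% of all genes. The genes were chosen as known members of the interferon pathway, so their larger shares are no independent result. The interval treats genes as independent, though several belong to the same family. A match describes these letters only and no binding was measured.

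By role, all 5 GTPase genes in the table (Gbp2, Gbp3, Gbp7, Igtp and Irgm1) and both sensor genes (Ifih1 and Ddx58) held an ISRE core, the sensors only after the start. IFIT genes held one in 2 of 3, OAS genes in 2 of 4, the ISG15 system in 1 of 2 and the other targets in 2 of 7. Among the transcription factors it lay in Stat2 alone of 5, and in none of the 5 receptor chains. The GAS core was found in Ifnar1, Ifnar2, Irf1, Ifit2, Oas1a, Gbp7, Igtp, Bst2 and Ifi35, and that of Bst2 overlapped its ISRE core by 3 bases.

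**Figure D1:**
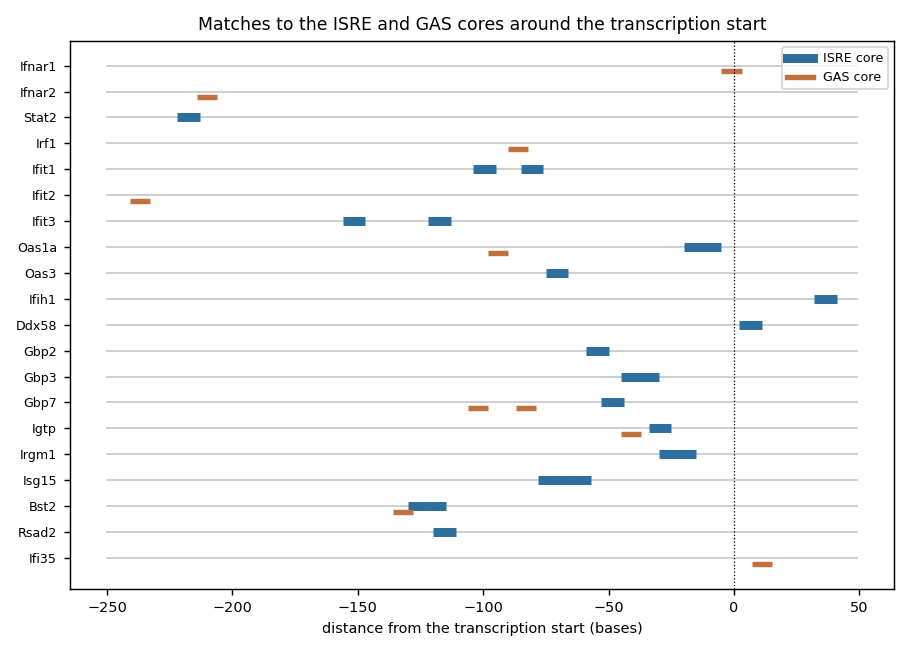
Each grey line is the promoter window of 1 of the 20 genes with a match, and the horizontal axis gives the distance in bases from the transcription start. Blue bars are ISRE cores and orange bars GAS cores, overlapping matches being drawn as a joined bar, and the 3 overlapping ISRE matches of Isg15 lie at -78 to -57.

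Transcripts of the pathway were detected across its whole length except for the ligands. The 40 genes summed to 574.3 TPM in library 1 and 1297.8 TPM in library 2 (936.0 ± 511.6), and to 1832.8 and 1722.3 nuclear TPM. They reached 1 TPM in both libraries in 36 cases and 10 TPM in 16. The 4 genes below 1 TPM in library 1 were Isg15, Oas2, Bst2 and Ifi35, and none was below 1 TPM in library 2. Ifngr1 alone made up 30.2% and 17.1% of the summed TPM and ranked first in both libraries. The order of the other genes was less alike, with a Spearman correlation of TPM between the libraries of 0.469 over the 40 genes, which share both libraries and are not independent. Deposited TPM was higher in library 2 for 34 of the 40 genes, whereas nuclear TPM was higher for 18 and lower for 22.

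**Figure D2:**
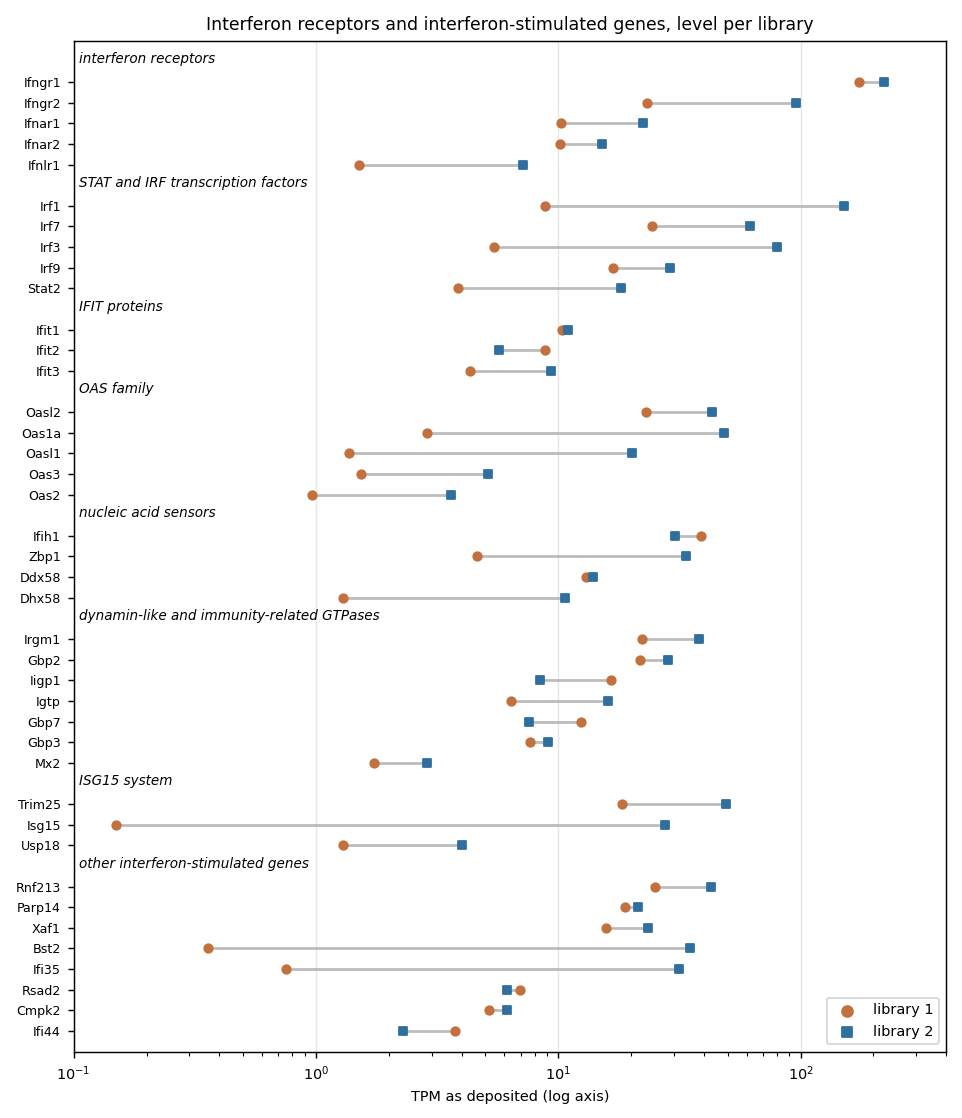
TPM of each of the 40 genes on a log axis, in library 1 (orange circles) and library 2 (blue squares), grouped by role and ordered by the mean of both libraries. Ifngr1 is the highest in both, at 174 and 222 TPM, and the widest gaps belong to Isg15, Bst2 and Ifi35.

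The 20 interferon genes themselves, the type I, II and III ligands, gave 1 count in all. It belonged to Ifnz, an interferon zeta gene, in library 2. By counting error alone, a gene at 0 may have had 3 counts, which is 0.116 CPM in library 1 and 0.145 CPM in library 2, where CPM is a count over the library total.

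The libraries were also compared gene by gene, as libraries of 1 tissue and not as conditions. Counts were scaled by TMM, a normalization that assumes most genes to be alike, and a gene was called higher or lower at a Benjamini-Hochberg adjusted p under 0.05 in a two-sided exact binomial test with a difference of at least 2-fold. Of the 40 genes, 13 were called higher in library 2 and 7 lower, and 20 were not called. Over all 15711 genes tested, 36.9% were called higher and 28.1% lower, against 32.5% and 17.5% of the 40. The median log2 ratio of library 2 over library 1 was -0.03 over the 40 genes and 0.12 over all genes tested. Both libraries hold RNA of the same mouse, so these calls describe the libraries. The split depended on the scaling: with the trend on transcript length taken off it was 11 higher and 14 lower (31.4% and 34.7% of all genes), at 1.5-fold it was 14 and 14 (41.4% and 35.9%), and by the ratio of deposited TPM, which moved the median of all genes to 1.18, it was 20 higher and 0 lower (53.6% and 4.82%). The ratios below are log2 values of library 2 over library 1 after TMM, with adjusted p-values of the exact binomial test.

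Among the receptors, the type II receptor was the most abundant. Ifngr1 (ENSMUSG00000020009.8, chromosome 10, 19591949 to 19610229, plus strand), the chain that binds interferon gamma, was at 174 TPM in library 1 and 222 TPM in library 2 (198 ± 34.3), or 554 and 295 nuclear TPM. Ifngr2 (chromosome 16, 91547072 to 91565623, plus strand), its signalling partner, was at 23.3 and 96.1 TPM. Ifnar1 (chromosome 16, 91485238 to 91507441), a chain of the type I receptor, was at 10.3 and 22.3 TPM, and its partner Ifnar2 (chromosome 16, 91372783 to 91405589) at 10.15 and 15.1 TPM. Ifnlr1 (chromosome 4, 135686287 to 135708181), the specific chain of the type III receptor, was the lowest at 1.51 and 7.15 TPM. The order Ifngr1, Ifngr2, Ifnar1, Ifnar2, Ifnlr1 was the same in both libraries, but in library 1 the deposited TPM intervals of Ifnar1 and Ifnar2, 9.31 to 11.3 and 8.18 to 11.1 TPM, overlapped.

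Of the 5 receptor chains, Ifnlr1 was called higher in library 2, with a log2 ratio of 1.07 (95% exact interval 0.80 to 1.36, adjusted p = 1.32e-15). That direction turned with the trend on GC content taken off, to -0.077. Ifnar1 gave 800 and 1080 counts and a log2 ratio of 0.00 (-0.13 to 0.14). Ifngr1 had a ratio of -0.15 and Ifnar2 of -0.44, while Ifngr2 reached 0.84, each short of 2-fold. Of these 4 chains, Ifnar2 passed 2-fold with the GC trend taken off, at -1.04.

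The transcript tables add the form of each receptor. The 5 transcripts of Ifnar2 are all annotated as protein-coding, but Ifnar2-203, of 1099 bases with 744 coding bases, took 90.7% of the TPM of the gene in library 1 and 67.6% in library 2. Its coding part ends at 91393948, before the last coding exon of Ifnar2-201, which has 1539 coding bases ending at 91404411. Ifnar2-201 took 9.34% and 16.6%. Ifnar2 is known to be made as a membrane receptor and as shorter forms without the signalling tail, and the shorter coding form had the larger share in both libraries. By counts the difference was smaller, 202 against 65.2 in library 1 and 135 against 104 in library 2, since TPM divides by length.

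For Ifngr1 the libraries differed in the leading transcript. The coding Ifngr1-201 was at 73.5 and 200 TPM, or 42.3% and 90.2% of the gene. The retained-intron Ifngr1-204, of 747 bases, took 51.0% in library 1 and 4.61% in library 2. Even so, Ifngr1 ranked first in both libraries by coding TPM alone. For Ifngr2, the coding Ifngr2-201 took 70.2% and 68.3%, and Ifngr2-202, annotated as a target of nonsense-mediated decay, took the rest.

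The transcription factors held 4 of the 13 genes called higher in library 2, where 36.9% of all genes tested were called higher. The median ratio of the 5 factors was 1.79, and -0.69 with the GC trend taken off. Irf1 (ENSMUSG00000018899.12, chromosome 11, 53770014 to 53778374, plus strand), an activator induced by interferon gamma, was at 8.83 and 151 TPM (80.0 ± 101), from 280 and 3932 counts. Its log2 ratio was 3.38 (3.21 to 3.56), and 1.85 with the GC trend taken off, when it was still called. Its rank by TPM among the 40 genes was 20 in library 1 and 2 in library 2.

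Irf3 (chromosome 7, 44997648 to 45002848, plus strand), which starts interferon transcription after a virus is sensed, was at 5.44 and 80.1 TPM, with a log2 ratio of 3.0 (adjusted p = 5.98e-170). Its amplifier Irf7 (chromosome 7, 141262706 to 141266481, minus strand) was at 24.3 and 61.7 TPM, with a ratio of 1.79. Both turned with the GC trend taken off, Irf3 to -0.85 and Irf7 to -0.81, and the GC content of Irf3 rests on 2 of its 9 transcripts. Both overlap a gene on the other strand, Irf3 with Bcl2l12 (6 and 157 counts) and Irf7 with Phrf1 (164 and 1305 counts). The strand setting of the counting is not given in the sources used here, and the part of these reads in the values was not tested.

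The ISGF3 members were moderate in level. Stat2 (chromosome 10, 128270559 to 128292849) was at 3.86 and 18.2 TPM and was called higher in library 2, at 1.07 (0.90 to 1.24). With the GC trend taken off, the Stat2 ratio was 0.14. Irf9 (chromosome 14, 55603571 to 55610030) was at 16.8 and 29.0 TPM with a ratio of -0.30 and was not called. Irf9 shares bases and strand with Rnf31 (59 and 946 counts), so the counts of Irf9 are uncertain.

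Irf7 and Irf9 were counted mainly on different transcripts in the libraries. In library 1, 82.1% of the Irf7 TPM lay on the retained-intron Irf7-205 and the coding transcripts summed to 0.08 TPM, against 42.1 TPM in library 2. The gene level of Irf7 in library 1 was therefore almost all from transcripts not annotated as coding. For Irf9, Irf9-205 took 87.5% in library 1 and 13.2% in library 2, where Irf9-202 led with 49.6% after 0% in library 1. Both Irf9-205 and Irf9-202 are protein-coding. Of the Irf1 TPM, coding transcripts made up 50.3% and 98.9%.

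**Figure D3:**
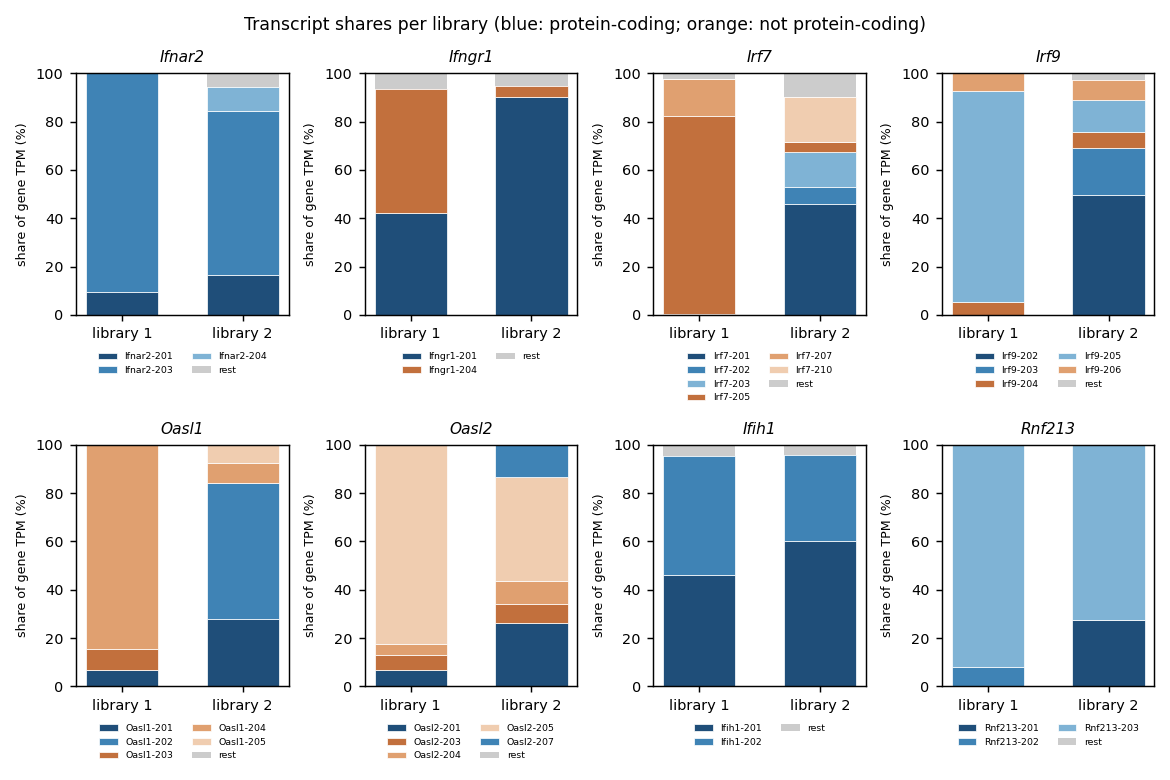
Share of each gene's TPM (%) by transcript in library 1 and library 2 for 8 genes, with protein-coding transcripts in blue, other types in orange, and transcripts under 5% in both libraries in grey. Coding transcripts took 42.3% of Ifngr1 in library 1 and 90.2% in library 2, and Ifnar2-203 was the largest form of Ifnar2 in both.

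The IFIT genes, whose proteins bind viral RNA, were below 11 TPM in both libraries. Ifit1 (chromosome 19, 34640871 to 34650009) was at 10.4 and 10.9 TPM (10.7 ± 0.403), but at 33.1 and 14.5 nuclear TPM. Ifit2 was at 8.84 and 5.68 TPM, and Ifit3 at 4.34 and 9.35 TPM. After TMM scaling Ifit2 was called lower in library 2, at -1.81 (-2.01 to -1.61), and 0.016 with GC and length trends both taken off. Ifit1 was called lower at -1.09, with 0.36 under the GC trend and 0.076 by the TPM ratio. Ifit3 had a ratio of -0.06 and was not called, and the sum of Ifit3 with its near-identical neighbour Ifit3b, 253 and 308 counts, gave -0.15. A relative outside the 40 genes, Ifit1bl1, was above the 3 IFIT members in both libraries, at 217 and 167 TPM.

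The OAS genes encode enzymes, or relatives of them, that make short oligoadenylates which switch on RNase L. Oas1a (ENSMUSG00000052776.10, chromosome 5, 120896256 to 120907521, minus strand), an active synthetase, was at 2.88 and 48.4 TPM (25.7 ± 32.2). Its log2 ratio was 2.90 (2.63 to 3.19), with 1.90 after the GC trend was taken off, and the sum with its close relative Oas1g gave 2.64. Oasl1 (chromosome 5, 114923240 to 114937915), which lacks the enzyme activity and is known to hold back Irf7 translation, was at 1.37 and 20.2 TPM from 23 and 510 counts. Its ratio was 4.02, with 1.06 after the GC trend and 0.81 with GC and length trends both taken off. Oas2 was at 0.96 and 3.62 TPM with a ratio of 1.05, and Oas3 at 1.53 and 5.13 TPM with 0.42. Oasl2 was the highest of the family in library 1 but not called, at 23.1 and 43.2 TPM with a ratio of -0.31. Of the 5 genes, 3 were called higher and 0 lower, beside 36.9% and 28.1% of all genes. With the GC trend taken off, Oas2 lost its call at 0.58 and Oas3 was called lower at -1.81.

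The coding share was small in both OAS-like genes in library 1. Of the Oasl1 TPM, 6.62% lay on coding transcripts in library 1 and 84.3% in library 2, and the retained-intron Oasl1-204 took 84.5% and 8.24%. For Oasl2 the leading transcript in both libraries was Oasl2-205, annotated as a target of nonsense-mediated decay, with 82.3% and 43.0%, and the coding transcripts summed to 1.59 and 17.1 TPM.

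The cytosolic nucleic acid sensors went both ways. Ifih1 (chromosome 2, 62595798 to 62646255, minus strand), which encodes the RNA sensor MDA5, had the highest mean of them, at 38.8 and 30.4 TPM (34.6 ± 5.88). It ranked second among the 40 genes in library 1 and 14 in library 2, and was called lower in library 2 at -1.43 (-1.51 to -1.35). With GC and length trends both taken off, its ratio was 0.18. Ddx58, the RIG-I gene, was at 13.1 and 13.9 TPM with a ratio of -0.60, not called. Dhx58, the LGP2 gene, was at 1.3 and 10.7 TPM with a ratio of 2.69. That ratio was 1.07 after the GC trend and 0.90 with GC and length trends both taken off. Zbp1, which senses nucleic acids in the Z form, was at 4.64 and 33.6 TPM with a ratio of 1.14 (0.91 to 1.38), and 0.23 after the GC trend.

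Both coding forms of Ifih1 were present, Ifih1-201 of 5470 bases with 46.1% and 60.3% and Ifih1-202 of 3616 bases with 49.1% and 35.4%. They have 3075 and 2928 coding bases. For the sensors Ddx58 and Dhx58, coding transcripts took 15.6% and 25.2% in library 1 and 54.0% and 75.5% in library 2.

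The GTPases, which attack the vacuoles of intracellular microbes or block viruses, held 2 genes called lower and 5 not called. Of all genes tested, 28.1% were called lower. Irgm1, a regulator of the other immunity-related GTPases, was at 22.1 and 38.2 TPM with a ratio of -0.63. The guanylate-binding Gbp2 was at 21.7 and 28.3 TPM, and its relative Gbp3 at 7.67 and 9.07 TPM, with ratios of -0.78 and -0.94. On the nuclear scale Gbp2 was at 69.25 and 37.6 TPM and Gbp3 at 24.5 and 12.0 TPM. Igtp was at 6.39 and 16.1 TPM with a ratio of 0.15, and overlaps Irgm2 on the same strand (916 and 844 counts). Mx2, annotated as a polymorphic pseudogene, was the lowest at 1.73 and 2.87 TPM, with a ratio of -0.67.

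Gbp7 (chromosome 3, 142530342 to 142550149, plus strand) was at 12.4 and 7.55 TPM, from 1598 and 580 counts, and was called lower in library 2 at -1.89 (-2.03 to -1.75). It was called lower with the GC trend taken off as well, at -1.34, and it was the only 1 of the 7 lower genes of which this held. That value is uncertain, since all counts of Gbp7 lay on Gbp7-202, of 5534 bases as deposited. Its GC content of 47.3% came from a reference sequence of 2497 bases. The other coding form, Gbp7-201 of 5548 bases, had 0 counts and a GC content of 41.7%. Its sum with Gbp3 gave -1.62. Iigp1, another immunity-related GTPase, was at 16.5 and 8.43 TPM with a ratio of -2.13, but 0.061 with the GC trend taken off.

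ISG15 is a ubiquitin-like modifier, and its gene showed the largest ratio of the 40. Isg15 (ENSMUSG00000035692.6, chromosome 4, 156199424 to 156200818, minus strand) had 2 counts in library 1 and 228 in library 2, or 0.15 and 27.5 TPM. The log2 ratio was 6.13 (4.53 to 9.46, adjusted p = 2.55e-51), and 4.83 with the GC trend taken off. Its level ranked 40 of 40 in library 1 and 17 in library 2. Usp18, the protease that removes ISG15 and restrains the type I receptor, was at 1.29 and 4.02 TPM with a ratio of 0.48. Trim25, a ligase that can attach ISG15, was at 18.3 and 49.2 TPM with a ratio of 0.20, so neither partner was called.

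The other targets included 2 genes with a contrast nearly as wide. Bst2 (ENSMUSG00000046718.7, chromosome 8, 71534255 to 71537456, minus strand), which encodes tetherin and holds budding viruses at the cell surface, had 5 and 294 counts, or 0.36 and 35.0 TPM. Its log2 ratio was 5.33 (4.21 to 7.08), 2.77 with the GC trend taken off and 2.25 with GC and length trends both taken off. Ifi35 (ENSMUSG00000010358.9, chromosome 11, 101448407 to 101458698, plus strand), an interferon-induced leucine zipper protein, had 17 and 501 counts, or 0.75 and 31.6 TPM, with a ratio of 4.42 and 2.23 after the GC trend. Isg15, Bst2 and Ifi35 were the 3 widest ratios and were under 1 TPM in library 1 only.

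Rsad2, the gene of the antiviral enzyme viperin, was at 6.98 and 6.16 TPM and was called lower at -1.35, which was 0.14 with GC and length trends both taken off. Its neighbour Cmpk2, a mitochondrial nucleotide kinase, was at 5.2 and 6.13 TPM with -0.93, not called. Ifi44 had the lowest mean of the group, at 3.76 and 2.29 TPM, and was called lower at -2.0 (-2.41 to -1.62), with -0.12 after the GC trend. Parp14, an ADP-ribosyltransferase, was at 18.9 and 21.4 TPM (20.1 ± 1.73), but at 60.4 and 28.4 nuclear TPM. Xaf1, a pro-apoptotic factor, was at 15.8 and 23.5 TPM. The Parp14 and Xaf1 ratios of -0.97 and -0.53 were not called.

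Rnf213, a very large ubiquitin ligase, led the group at 25.1 and 42.6 TPM with a ratio of 0.46. Most of this level lay on Rnf213-203, a form of 2422 bases with 936 coding bases, which took 92.1% and 72.5%. The full-length Rnf213-201, with 15456 coding bases, took 0% and 27.5%, and the nearly identical Rnf213-202 took 7.91% and 0%. By counts the full-length forms together had 790 and 2780.

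Over the 34 members with a mean of at least 5 TPM, 28 had several transcripts, and in 27 of these all were annotated. The share of coding transcripts was higher in library 2 in 12 of the 27, lower in 4 and equal, to within 0.05 percentage points, in 11. The leading transcript differed between the libraries in 12 of the 28 members with several transcripts, and in 11 of these 12 it was the longer transcript that led in library 2.

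The library ratios ran along the GC content of the transcripts. The 13 genes called higher had a GC content of 50.7 to 57.8% (median 53.3%), the 20 not called of 45.5 to 54.7% (median 48.6%), and the 7 called lower of 38.7 to 47.3% (median 43.3%). Across the 40 genes Pearson's r between GC content and log2 ratio was 0.80 and Spearman's rho 0.90. Over 15654 genes with a value they were 0.84 and 0.90. Between the log2 of the deposited effective length and the log2 ratio, Pearson's r was -0.63 and Spearman's rho -0.52 across the 40 genes. Over the 15654 genes these were -0.26 and -0.27. These correlations are across genes of the same 2 libraries and the genes are not independent replicates.

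With the trend of all genes on GC content taken off, 8 of the 40 genes were called higher and 4 lower, beside 12.3% higher and 11.0% lower over all genes. Of the 20 calls, 8 were kept: Irf1, Oas1a, Oasl1, Dhx58, Isg15, Bst2 and Ifi35 higher, and Gbp7 lower. The Gbp7 call is uncertain, because its GC content came from a reference sequence shorter than the deposited transcript. The calls gained were Rnf213 at 1.06, Ifnar2 at -1.04, Cmpk2 at -1.33 and Oas3 at -1.81. With the trends on GC content and length both taken off, 6 genes were higher and 6 lower, beside 10.4% and 11.6% over all genes. Oasl1 (0.81) and Dhx58 (0.90) then fell short of 2-fold and were no longer called. The median ratio with the GC trend taken off was -0.01, equal to that of all genes at 2 decimals. What set the GC trend was not tested.

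**Figure D4:**
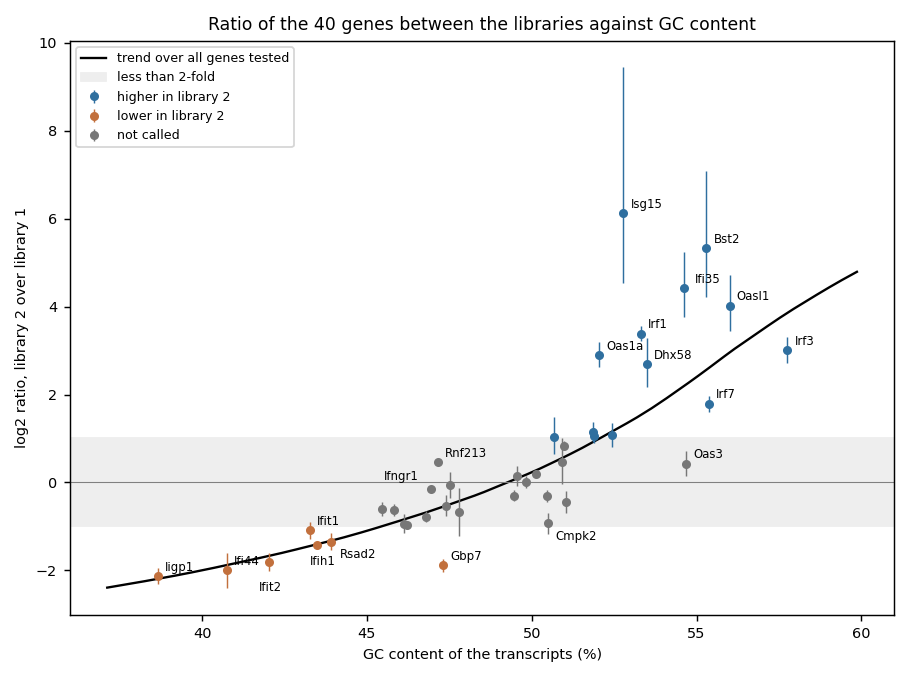
Log2 ratio of library 2 over library 1 after TMM scaling against the GC content of the transcripts (%) for the 40 genes, with 95% exact intervals for counting error, the 2-fold band in grey and the trend of all genes tested as a line. Genes called lower lie at 38.7 to 47.3% GC and genes called higher at 50.7 to 57.8%. Isg15, Bst2 and Ifi35 lie above the trend and Gbp7 below it, but the GC content of Gbp7 came from a shortened sequence.

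The ISRE core did not divide the calls clearly. Of the 15 genes with a core, 4 were called higher, 4 lower and 7 not called. Of the 18 without, 6 were higher, 2 lower and 10 not called. The shares over all genes tested were 36.9% higher and 28.1% lower. The 15 had a median of 6.98 TPM in library 1 and 16.1 TPM in library 2, and the 18 had 10.2 and 30.3 TPM. No test was made of these counts.

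The rest of the pathway was read from 88 further genes, of which 86 were found and 65 had enough counts to be tested. Of these 65, 27 were called higher in library 2, 20 lower and 18 not called, beside 36.9% higher and 28.1% lower over all genes tested. Among the 11 genes of the shared receptor chain, kinases and transcription factors, 4 were higher and 2 lower. The shared type III chain Il10rb was at 31.1 and 72.2 TPM, the repressor Irf2 at 40.03 and 62.05 TPM, the kinase Jak1 at 40.1 and 54.1 TPM, and Stat3 at 9.11 and 63.5 TPM. Il10rb had a ratio of 0.05 and was above Ifnlr1 in both libraries.

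Of 5 negative regulators, 3 were higher and 1 lower in library 2, beside 36.9% and 28.1% of all genes tested. The phosphatase Ptpn2 was at 34.5 and 25.3 TPM and was called lower, at -1.65. Ptpn6, a phosphatase of blood cells, was at 0.61 and 28.7 TPM, with a ratio of 4.62, but both values lay below their deposited TPM intervals, 2.74 to 109.6 and 30.8 to 162.5, which overlap. The suppressors Socs1 and Socs3 were at 0.28 and 2.87 and at 0.32 and 7.39 TPM, both called higher. Their GC contents were 58.5 and 58.7%, and with the GC trend taken off both ratios turned, Socs1 to -2.06 and Socs3 to -0.96.

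Of 9 genes of the sensing routes that induce interferon, 5 were higher and 3 lower, beside 36.9% and 28.1% of all genes tested. Tlr3, an endosomal receptor for double-stranded RNA, was at 29.5 and 13.9 TPM, whereas its adaptor Ticam1 was at 0.22 and 28.3 TPM. The RIG-I adaptor Mavs was at 2.17 and 33.4 TPM, the kinase Tbk1 at 18.6 and 24.1 TPM, and Ikbke at 10.2 and 32.7 TPM. Tlr3 had a GC content of 40.04% and a ratio of -2.23, and Ticam1 had 56.4% and 5.78.

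Of 40 further interferon-stimulated genes that were tested, 15 were higher, 14 lower and 11 not called. Over all genes tested, 36.9% were higher and 28.1% lower. Besides Ifit1bl1, those with the highest mean TPM included the entry restriction factors Ifitm2, at 19.5 and 234 TPM, and Ifitm3, at 2.46 and 125 TPM. Samhd1, a nucleotide hydrolase, was at 113 and 88.1 TPM, and Parp12 at 45.6 and 75.1 TPM. Samhd1 and Parp12 were not called, whereas Ifitm2 and Ifitm3 were higher at 2.44 and 4.50. With the GC trend taken off, the Ifitm2 and Ifitm3 ratios were 0.39 and 3.62. Apart from Ifngr1, all of the 40 genes had less TPM in library 1 than Samhd1 or Ifit1bl1.

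Markers of cell types that carry interferon pathways also differed between the libraries. The calls below were made without the GC trend taken off, and stand beside 36.9% higher and 28.1% lower over all genes tested. All 8 macrophage markers were detected, with a sum of 31.5 and 252 TPM (100.5 and 335 nuclear TPM), and 5 were higher and 1 lower. The 7 epithelial markers summed to 848 and 7667 TPM (2707 and 10175 nuclear TPM) with 5 higher. The 6 smooth muscle markers summed to 327 and 4791 TPM (1045 and 6358 nuclear TPM) with 6 higher. Of 5 endothelial markers, summing to 13.5 and 61.4 TPM (43.0 and 81.5 nuclear TPM), 3 were higher. The 4 fibroblast markers summed to 541 and 683 TPM, but to 1727 and 907 nuclear TPM, with 1 higher and 1 lower.

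The immune lists were low or rested on 1 gene. The 5 conventional dendritic cell markers summed to 4.0 and 8.28 TPM, the 6 T and NK cell markers to 2.92 and 9.20 TPM and the 4 neutrophil markers to 5.12 and 8.80 TPM. On the nuclear scale the dendritic cell sum was 12.8 and 11.0, the T and NK cell sum 9.32 and 12.2 and the neutrophil sum 16.3 and 11.7. The 4 B and plasma cell markers summed to 423 and 440 TPM (1349 and 584 nuclear TPM), of which Jchain made 405 and 391 TPM. The plasmacytoid dendritic cell list, the cells best known for type I interferon, summed to 180 and 2922 TPM. Without the kallikrein gene Klk1 this list summed to 26.3 and 32.9 TPM (83.9 and 43.6 nuclear TPM). Its defining Siglech was at 1.20 and 1.51 TPM, but at 3.83 and 2.00 nuclear TPM. Siglech was called lower in library 2 at -1.18, with -0.45 after the GC trend was taken off. Of the plasmacytoid list, 2 markers were called higher and 4 lower. Calls higher and lower were 0 and 2 for conventional dendritic cells, 0 and 1 for T and NK cells. They were 1 and 1 for neutrophils and 2 and 2 for B and plasma cells, beside 36.9% and 28.1% of all genes tested. No marker of these lists was at 0 in either library. The part of cell composition in the ratios of the 40 genes was not tested.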

How the data were processed

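Polyadenylated RNA of 1 mouse was measured in 2 technical libraries, which form 1 group. The authors deposited gene and transcript tables on mm10 with GENCODE M4, as text files deposited with them say. The aligner, the quantifier and the use of strand were not given in the sources used here. The columns, per the file headers, are the authors' expected counts, TPM, FPKM and posterior mean TPM, and in the transcript tables each transcript's percent of its gene, as deposited. The members and lists were chosen with earlier results of these data known. Every member is named, and of other pathway genes up to 5 per role by mean TPM, with the ligands that had a count; some genes that this takes are not reported here. The markers Jchain, Klk1 and Siglech were named after their values were seen.

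Expected counts were rounded. Genes entered with a mean of at least 10. With 1 library a side edgeR's quasi-likelihood test has no residual degrees of freedom, so a two-sided exact binomial test was used with TMM sizes (edgeR 4.0.16, R 4.3.3; library 2 over library 1, 1.35) and Benjamini-Hochberg adjustment over all genes. Ratios used a prior count of 0.5. Trends were lowess fits with a fraction of 0.2 (statsmodels 0.14.6, Python 3.11.15). The alternatives included DESeq2 1.42.0 size factors, other filters and other units. Positions, transcript types and GC content came from GENCODE M21 on the same assembly, in which 151 of 158 member transcripts were found, 137 of them with the same length. Gene names matched 42462 of 43346 genes. The test was also run on simulated counts that held no trend on GC content or length. That run therefore does not cover the trends seen between these libraries. Intervals cover counting error only.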

Additional observations from a re-analysis of the deposited data

How the results depend on the processing

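No paired analysis was possible because both libraries belong to 1 group. The counts of members called higher and lower (13 and 7) stayed within 1.5 times under DESeq2 size factors, TMM over nuclear genes, a mean count of at least 50 and no filter. They were 8 and 4 with the GC trend taken off, 11 and 14 with the length trend taken off, 14 and 14 at 1.5-fold, 20 and 0 by the TPM ratio, and 6 and 6 with both trends taken off, which was added once the data had been seen. The median log2 ratio moved by over 0.25 to -0.42 with the length trend taken off and to 1.00 by the TPM ratio. The mean summed level was 936.0 TPM, 1777.6 on the nuclear scale, and 574.3 to 1297.8 leaving out each library in turn; the number at 1 TPM or more was 36 to 40 leaving out each library, and 36 to 39 in other units. The share of members with an ISRE core in a promoter window was 36.4 to 45.5% with the motif or the window changed singly. Among the 20 genes called, directions reversed with the GC trend taken off for Ifnlr1 (-0.077), Irf3 (-0.85), Irf7 (-0.81), Ifit1 (0.36) and Iigp1 (0.061), with both trends taken off for Irf3 (-1.19), Irf7 (-1.12), Ifit1 (0.38), Ifit2 (0.016), Ifih1 (0.18), Iigp1 (0.12) and Rsad2 (0.14), and for Ifit1 by the TPM ratio (0.076). The causes were not tested. TMM over nuclear genes changed no call of the 40, and DESeq2 size factors changed 2, Oas2 (0.99, no longer called) and Parp14 (-1.02, called lower). Depth limits Isg15 (2 counts) and Bst2 (5 counts) in library 1, whose ratios have the widest intervals.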
